A study of Mus musculus with 24 samples.

Results

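Cre recombinase was compared with GFP in the nucleus accumbens of stressed female mice that carry loxP-flanked ("2lox") copies of the DNA methyltransferase gene Dnmt3a on both chromosomes. Membership followed the sample labels: 3 libraries labelled AAV-CRE, female, and 3 labelled AAV-GFP, female, which are 6 of the 24 libraries of the series. All 6 share the C57BL/6J background, the Dnmt3a2lox/2lox genotype and the stress treatment, and they differ in the injected adeno-associated virus (AAV). One virus delivered GFP alone, and the other delivered Cre, which cuts out the flanked part of the gene, together with GFP according to the design text. The stress was subchronic and variable according to the series title, which means that the stressors changed over the schedule. No floxed group without stress is labelled, so the comparison gives the effect of Cre in stressed females and not the effect of stress. Each library was made from the pooled mRNA of 4 mice, so n counts libraries, and a mouse that differed from its pool mates cannot be seen. The promoter and serotype of the virus, the share and type of cells that took it up, the age of the mice and the time from injection to dissection were not stated in the labels. The protocol text writes dorsal striatum beside nucleus accumbens where it describes the tissue punches. Of 37991 Ensembl genes in the table, 17597 passed the expression filter and were tested, and 6 floxed male libraries with the same design (3 Cre, 3 GFP) are given for comparison.

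Dnmt3a adds methyl groups to cytosine in unmethylated DNA, mainly where cytosine is followed by guanine (CpG) and, in neurons, also at other cytosines. CpG methylation in promoters and non-CpG methylation across gene bodies are generally associated with lower transcription. In the nucleus accumbens, where medium spiny neurons that carry D1 or D2 dopamine receptors make up most neurons, Dnmt3a has been studied for its part in responses to stress and to drugs of abuse.

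Promoter windows of 4 genes with small p are shown so that the CpG sites Dnmt3a could act on can be seen, 2 genes with higher and 2 with lower levels in Cre libraries. Each window runs from 250 bases before to 50 bases after the gene start, was taken from RefSeq (build GRCm38.p6), and has its CpG sites in capitals. No gene met the main rule for choosing promoters, so the first 2 genes per direction with an entry, ordered by p, were taken.
Akt1s1, chr7:44850122-44850421, plus strand, 27 CpG sites: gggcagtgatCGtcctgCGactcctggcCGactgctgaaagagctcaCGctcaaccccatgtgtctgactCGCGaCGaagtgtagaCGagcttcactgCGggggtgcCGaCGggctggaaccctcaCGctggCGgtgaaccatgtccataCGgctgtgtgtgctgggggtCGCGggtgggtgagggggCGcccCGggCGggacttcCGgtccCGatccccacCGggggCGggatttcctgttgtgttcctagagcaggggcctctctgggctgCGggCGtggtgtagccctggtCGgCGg
Mex3a, chr3:88531696-88531995, plus strand, 20 CpG sites: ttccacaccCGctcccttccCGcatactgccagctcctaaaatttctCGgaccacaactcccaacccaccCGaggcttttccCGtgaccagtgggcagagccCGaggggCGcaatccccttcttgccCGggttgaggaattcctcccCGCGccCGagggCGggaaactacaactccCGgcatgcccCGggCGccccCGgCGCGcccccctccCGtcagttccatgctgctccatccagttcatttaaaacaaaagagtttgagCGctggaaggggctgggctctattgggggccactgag
Slc17a8, chr10:89621200-89621499, minus strand, 7 CpG sites: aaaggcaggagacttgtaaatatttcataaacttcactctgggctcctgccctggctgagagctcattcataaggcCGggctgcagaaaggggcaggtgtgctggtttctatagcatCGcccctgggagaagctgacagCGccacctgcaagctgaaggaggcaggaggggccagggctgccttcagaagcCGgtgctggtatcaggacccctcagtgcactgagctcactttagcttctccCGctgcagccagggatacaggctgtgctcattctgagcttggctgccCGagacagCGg
Lbh, chr17:72918055-72918354, plus strand, 25 CpG sites: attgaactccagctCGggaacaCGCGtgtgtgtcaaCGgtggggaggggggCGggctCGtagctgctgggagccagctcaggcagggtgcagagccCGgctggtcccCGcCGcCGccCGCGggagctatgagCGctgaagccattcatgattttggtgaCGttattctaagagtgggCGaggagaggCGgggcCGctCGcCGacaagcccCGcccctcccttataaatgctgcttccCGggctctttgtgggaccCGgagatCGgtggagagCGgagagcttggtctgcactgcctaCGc
The median over 12403 promoters of tested genes was 19 CpG sites, so Akt1s1 and Lbh lay above it, Mex3a near it and Slc17a8 below it. A promoter was found for 70.5% of the genes tested and for 24 of the 32 genes that DESeq2 called (75.0%, below), which is too few for a comparison of promoters between gene sets, and methylation was not measured.

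Total counts in the 6 female libraries ran from 28132563 to 42249311, mitochondrial genes took 7.885% to 8.891% of them, and IDs without a symbol 0.745% to 0.78%. Values per library are counts per 1000000 counts (CPM), scaled with TMM factors. CPM are not divided by gene length, so levels are compared between libraries and not between genes. Markers of medium spiny neurons were present in every library: Drd1, the D1 dopamine receptor, stood at 289.98, 261 and 335 CPM in Cre and 258, 303 and 239.9 in GFP females, and Drd2, the D2 receptor, at 219, 172 and 228 and 177, 198 and 166. In both genes the groups overlapped. In a bulk sample, fewer cells of a type and less RNA per cell cannot be told apart.

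Dnmt3a (ENSMUSG00000020661), the gene that Cre targets, was at 155, 150.4 and 139.8 CPM in Cre females and 162, 169 and 155 CPM in GFP females. The highest Cre library lay just above the lowest GFP library, so the groups overlapped. The fitted log2 fold change was -0.12 (SE 0.06) and did not pass the test (adjusted p = 0.83, edgeR quasi-likelihood test with Benjamini-Hochberg adjustment over all genes). In males the same comparison gave 143, 137 and 138 against 182, 164 and 171 CPM, a log2 fold change of -0.30 that passed (adjusted p = 0.015, edgeR), while the difference between the sexes did not (adjusted p = 0.27, edgeR). The Cre male libraries also held cortical RNA and, mostly in replicate 2, choroid plexus RNA (below). With a score of cortical markers as a covariate the male log2 fold change of Dnmt3a was -0.13 and no male gene passed edgeR. These counts cover the whole gene, including exons outside the deleted part, untransduced cells and any transcript on the opposite strand where Dnmt3a overlaps another gene, so they do not measure how much of the gene was recombined. Dnmt1, which maintains methylation after replication, differed little (76.8, 68.6 and 63.8 against 71.9, 69.5 and 71.6 CPM, log2 -0.03), and Dnmt3b, the other de novo enzyme, was near 1 CPM (0.885, 1.43 and 0.931 against 0.744, 0.974 and 0.973).

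No gene passed the edgeR test at an adjusted p below 0.05 in females: 0 of 17597 genes, which is 0.0%. At an unadjusted p below 0.05, 685 genes were higher (3.89%) and 364 lower (2.07%), 1049 in all (5.96%). limma-voom called 0 genes (0.0%), and DESeq2 called 32 of 19585 genes, all higher in Cre (0.163%), and 0 lower (0.0%). The smallest edgeR adjusted p was 0.448, shared by 21 genes. Differences were small beside their error: the median absolute log2 fold change over all genes was 0.0856 and the median SE 0.108. Over all genes the groups did not overlap in 6.5% of genes with higher and 5.04% with lower values in Cre.

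Among genes at 1 or more mean log2 CPM, the 10 with the smallest p and a higher level in Cre lay between log2 0.44 and 1.71. None passed edgeR, which is why the 10 smallest p are given here. All 10 were called by DESeq2, and in all 10 every Cre library was above every GFP library. The genes were chosen by p in these same libraries, so neither adds independent support. C1qtnf4 (ENSMUSG00000040794), which codes for a secreted C1q and TNF family protein, had 39.2, 50.9 and 56.1 CPM in Cre against 10.2, 15.5 and 22 CPM in GFP libraries, and Ier5l (ENSMUSG00000089762), a relative of the immediate early gene Ier5, had 6.47, 8.44 and 9.98 against 1.52, 2.39 and 3.71 CPM. The fitted level was 3.07 times as high in Cre for C1qtnf4 (log2 1.62, SE 0.29) and 3.27 times for Ier5l (log2 1.71, SE 0.33). The DESeq2 adjusted p was 1.2e-05 for C1qtnf4 and 0.0014 for Ier5l. In both genes GFP replicate 1 was lowest and GFP replicate 3 was the closest to the Cre libraries.

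The other 8 had log2 fold changes of 0.60 or less. H2afx, the histone H2A variant that is phosphorylated at DNA breaks, had 15.5, 16 and 17.9 CPM in Cre and 10.9, 12.3 and 11.7 in GFP libraries, with the smallest edgeR p of all genes (log2 0.50). Akt1s1, which codes for an inhibitor of the growth-regulating kinase complex mTORC1, had 27.3, 27.8 and 29.4 against 18.5, 19.5 and 23 CPM. Icam5, an adhesion molecule of forebrain dendrites, had 182, 151 and 172 against 102, 126 and 125 CPM. For these 3 genes the lowest Cre library was above the highest GFP library. Mex3a, an RNA-binding protein gene, was at 7.002, 7.34 and 6.9 against 5.03, 4.4 and 5.13 CPM, and the zinc finger gene Zfp865 at 28.5, 27.5 and 28.5 against 16.5, 18.5 and 21.9 CPM. Rprml, Rex1bd and an ID without a symbol (ENSMUSG00000042878) had log2 fold changes of 0.60, 0.44 and 0.50. All 10 genes also had higher fitted levels in Cre males (all genes, 50.9%), and 8 of them passed the male edgeR test (all genes called higher, 3.68%). None did once the cortical score was added to the model. No male gene at all passed with that score, so this loss says nothing about these genes in particular. None of the 10 genes changed direction when any 1 of the 12 floxed libraries was left out. With every Cre library above every GFP library, this outcome was fixed in advance and says nothing about their stability. Their transcripts are rich in G and C (median 62.3% over the 9 with an annotation), and GC content is taken up below.

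**Figure D1:**
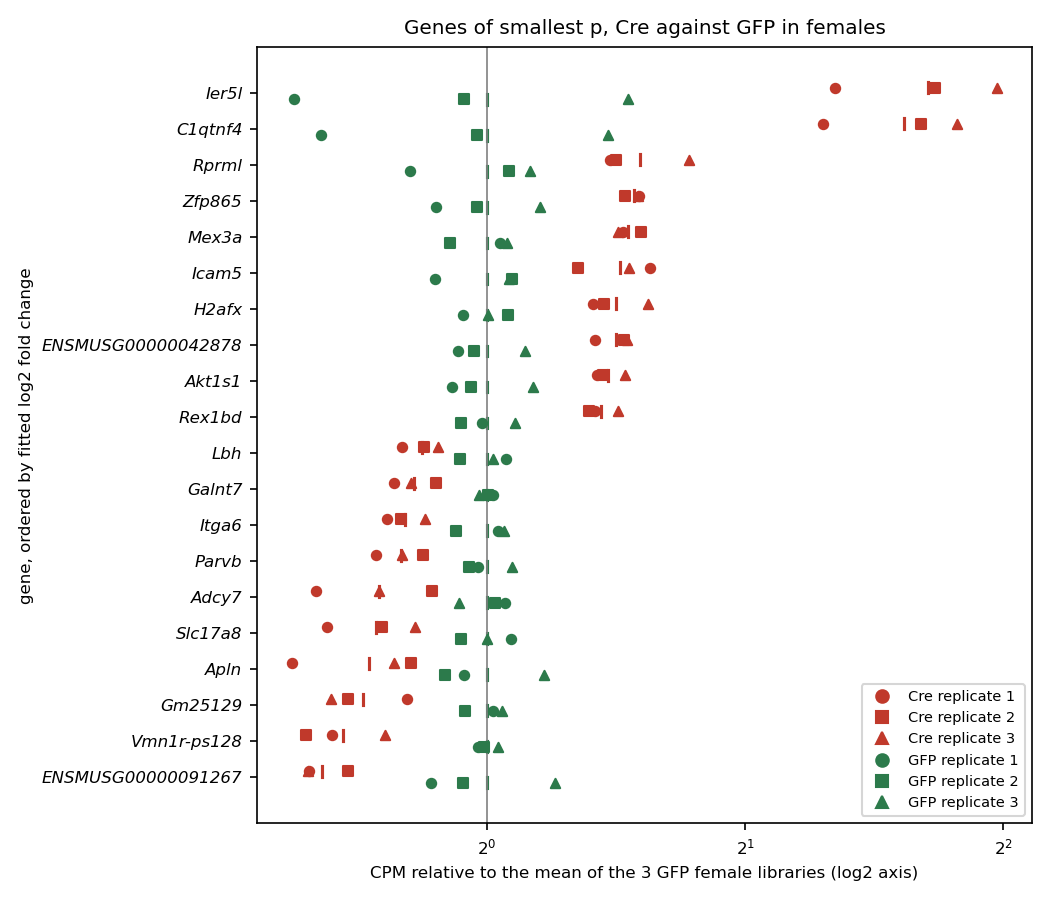
CPM of the 20 genes of smallest p in each female library, divided by the mean of the 3 GFP libraries (log2 axis); red symbols are Cre, green symbols GFP, the symbol shape is the replicate, and short lines are group means. For these 20 genes the Cre and GFP libraries do not overlap, the genes were chosen by p in these same libraries, and none passed the edgeR test.

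The 10 genes with the smallest p and a lower level in Cre lay between log2 -0.25 and -0.64, and no tool called any of them. Slc17a8 (ENSMUSG00000019935) codes for the vesicular glutamate transporter VGLUT3, which cholinergic interneurons of the striatum express. It had 15.4, 17.9 and 19.5 CPM in Cre against 25.2, 22.1 and 23.7 CPM in GFP libraries (log2 -0.43, SE 0.10, DESeq2 adjusted p = 0.055), and all Cre libraries were lower. Males had 20.03, 18.3 and 16.7 against 23.3, 22.7 and 20.4 CPM (log2 -0.27), in the same direction. Lbh, a transcription cofactor gene, had 25.4, 27 and 28 against 33.6, 29.7 and 32.4 CPM in females and 33.8, 35.3 and 30.7 against 24.8, 25.1 and 25.9 CPM in males, where it was higher in Cre (log2 0.40, adjusted p = 0.011, edgeR). For Lbh the difference between the sexes just missed the test (adjusted p = 0.058, edgeR). Adcy7, an adenylyl cyclase gene, had log2 -0.42 in females and 0.47 in males, and the difference did not pass either (adjusted p = 0.074, edgeR). Itga6, a laminin receptor subunit, had 22.1, 23 and 24.5 against 29.9, 26.6 and 30.4 CPM, and Parvb, which links integrins to actin, 21, 23.8 and 22.5 against 27.5, 26.9 and 30.2 CPM. Apln, the ligand of the apelin receptor, had 9.43, 13 and 12.4 against 15, 14.2 and 18.5 CPM. Galnt7, an enzyme of O-glycan synthesis, the pseudogene Vmn1r-ps128, Gm25129 and an ID without a symbol (ENSMUSG00000091267) completed the 10. Of these, 3 of 10 had the same sign in males, where 50.9% of all genes were positive. Lbh and Adcy7, 2 of the 10, passed the male test in the opposite direction (all genes called higher in males, 3.68%).

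DESeq2's 32 genes were named because a second tool called them, after their values had been seen. In edgeR their log2 fold changes ran from 0.19 to 3.88 with a median of 0.57, 18 were under 1.5-fold and 6 over 2-fold. Among them, Egr4 and Junb are immediate early transcription factors of the Egr and AP-1 families. Egr4 had 11.8, 20.6 and 13.4 CPM in Cre against 4.95, 6.7 and 8.63 in GFP libraries (log2 1.17, DESeq2 adjusted p = 0.0048). Junb had 37.3, 52.1 and 35.5 against 17.6, 26.9 and 20.2 CPM (log2 0.94, DESeq2 adjusted p = 0.004). In both, Cre replicate 2 was the highest library, and without it the edgeR log2 fold changes were 0.89 for Egr4 and 0.75 for Junb. Ddit4l, which codes for an mTORC1 inhibitor, had 11.5, 11.8 and 10.4 CPM in Cre and 8.35, 6.49 and 7.4 CPM in GFP females, but 5.56, 6.88 and 7.15 against 10.2, 11.4 and 9.66 CPM in males, where it was lower in Cre (log2 -0.67, adjusted p = 0.014, edgeR). The difference between the sexes for Ddit4l missed the threshold (adjusted p = 0.056, edgeR).

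Actg1, gamma-actin, was also among the 32 and had 286, 293 and 284 CPM in Cre and 247, 248 and 262 in GFP libraries, the smallest fold change of the 32. Map1s, a microtubule-associated protein gene, was at 55.9, 54.7 and 58.4 against 32.3, 36.6 and 45 CPM, and Tpgs1, a subunit of the enzyme that adds glutamate chains to tubulin, at 16.6, 20.8 and 21 against 8.75, 10.6 and 14.2 CPM. Cdk5r2, an activator of the neuronal kinase Cdk5, had 127, 132 and 131 against 89, 95.2 and 117 CPM, with GFP replicate 3 nearest to the Cre libraries. Mitochondrial proteins among the 32 were Chchd10 (74, 76.2 and 83.9 against 49.9, 52.1 and 66.5 CPM) and the nuclease Endog (2.43, 2.14 and 2.39 against 1.12, 1.03 and 1.24 CPM). Prrt1, which codes for a protein associated with AMPA-type glutamate receptors, had 115, 112 and 112 against 85.3, 92.2 and 101 CPM. Insm1, a zinc finger factor of neuroendocrine and neural precursors, had 9.48, 8.94 and 9.22 against 6.12, 6.38 and 6.66 CPM, and Car9, a hypoxia-responsive carbonic anhydrase, 2.25, 1.995 and 1.48 against 0.658, 0.885 and 1.002 CPM. Insm1, Car9 and Ddit4l were the 3 of the 32 with a negative male log2 fold change. The largest fold change of the 32, that of Hist1h2al (log2 3.88), rests on 0.404, 1.21 and 1.55 against 0, 0.0295 and 0.177 CPM, and the annotation calls this ID a processed pseudogene of a multicopy histone family, so its count may be shared with near-identical copies. The rest were Rps13, Zfp771, Zfp444, Gm13889, Nat14, Yjefn3, Ino80b, Csf2ra and an ID without a symbol (ENSMUSG00000072800).

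The call set was not stable to the choice of libraries. DESeq2 called 5 genes without GFP female replicate 1, 13 without Cre female replicate 3, 111 without GFP female replicate 3 and 115 without Cre male replicate 2, and 2 genes, C1qtnf4 and Zfp865, were called in all 12 fits that each left out 1 library. Of the 32 genes, 12 overlap a gene on the opposite strand (28.98% of all tested genes do), so their counts may include its reads. In males 29 of the 32 had a positive log2 fold change (all genes, 50.9%). Of the 32, 20 were called higher by edgeR in males, which is 62.5% (all genes, 3.68%). These 20 make up 3.09% of the 647 male genes called higher. None of these 20 calls remained with the cortical score in the model. No male gene passed edgeR with it, so this loss says nothing about the 20 in particular.

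**Figure D2:**
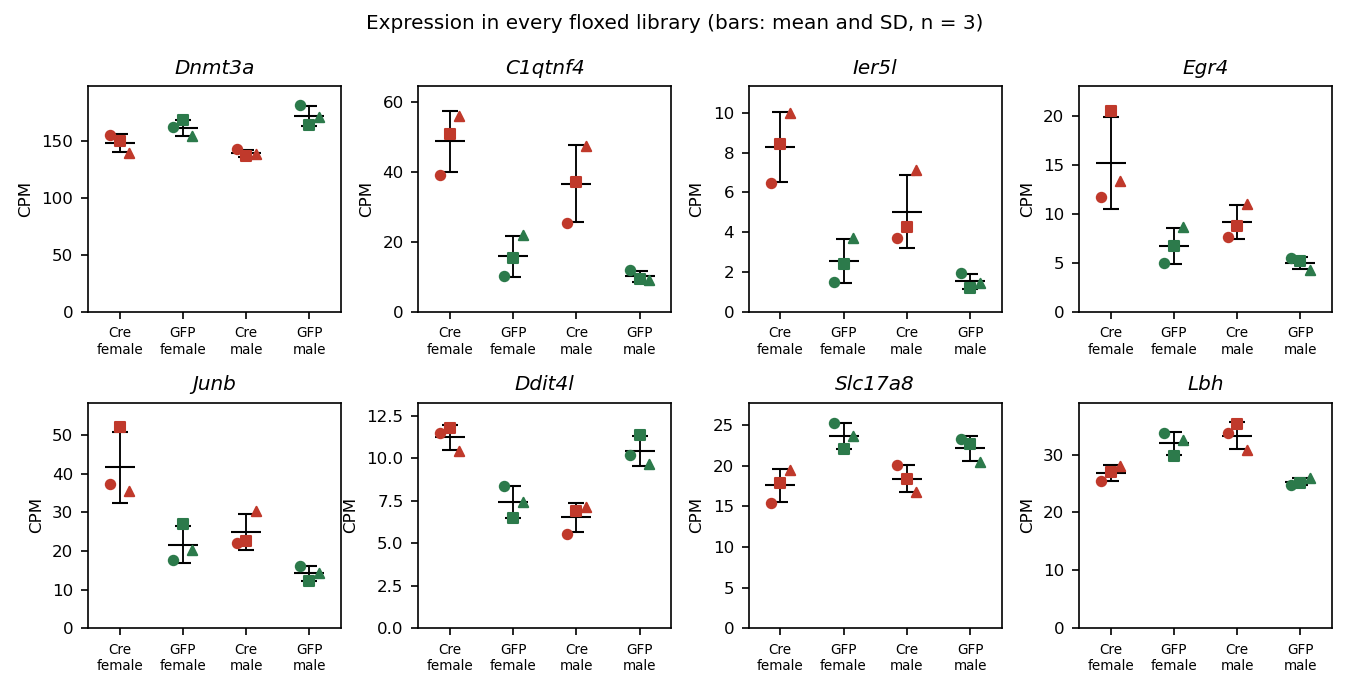
CPM of 8 genes in every floxed library by group, with black bars for the mean and SD (n = 3 libraries); the axes start at 0. C1qtnf4, Ier5l, Egr4 and Junb are higher in Cre libraries of both sexes, Ddit4l and Lbh differ in opposite directions in females and males, and Dnmt3a overlaps in females but not in males.

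Genes with higher levels in Cre were rich in G and C, and the fold change followed GC content across the whole transcriptome. Median transcript GC was 62.21% for the DESeq2 genes (30 of 32 with a value), 55.73% for genes higher at an unadjusted p below 0.05, 47.97% for genes lower at that p and 49.7% for all tested genes. Median female log2 fold change ran from -0.04 in the group of lowest GC, out of 10 groups of genes ordered by GC, to 0.09 in the group of highest GC, and in males from -0.06 to 0.17. By library, the group of highest GC deviated from the mean of the floxed libraries by 0.0803, 0.0314 and 0.0619 (median log2) in Cre females 1 to 3. In GFP females 1 to 3 it deviated by -0.0874, -0.0826 and 0.0669, so GFP replicate 3 lay with the Cre libraries. With a correction for GC content, added after seeing the data, 519 genes were higher and 493 lower at an unadjusted p below 0.05, against 685 and 364 without it. The 32 genes stayed positive after the correction with a median log2 of 0.51, and 15 of them were among the 16 that DESeq2 then called. C1qtnf4 and Ier5l kept GC-corrected log2 fold changes of 1.32 and 1.56. Whether the GC shift arose in the libraries or in the tissue was not tested.

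**Figure D3:**
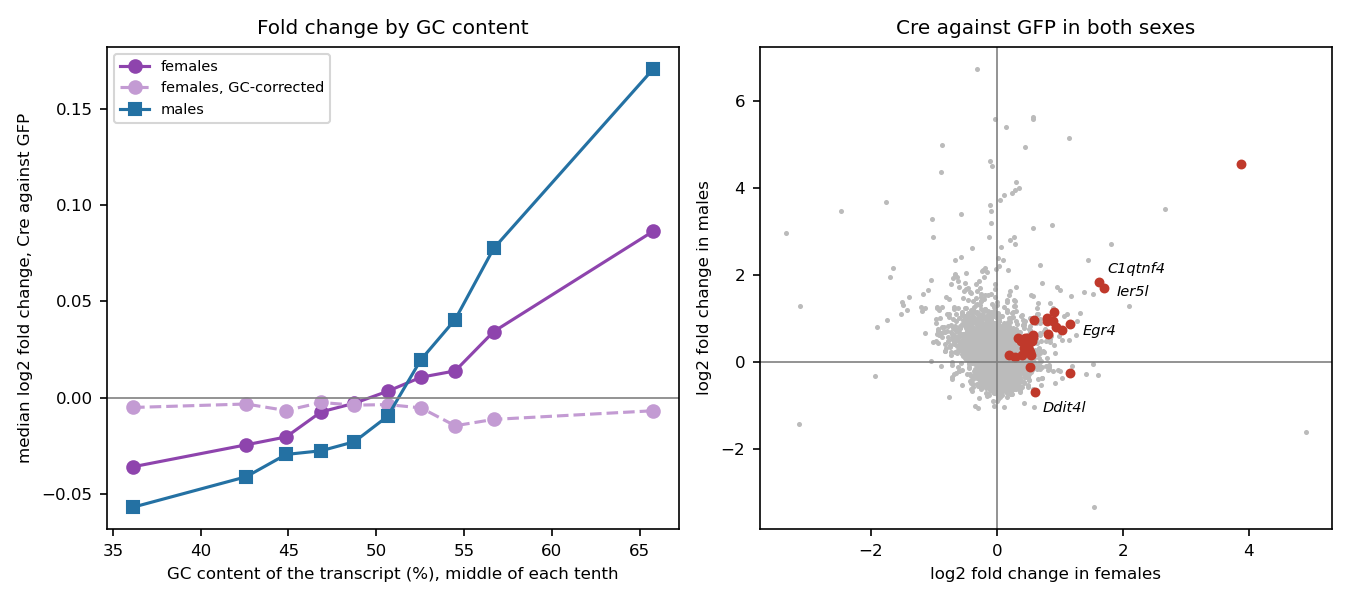
Left, median log2 fold change (Cre against GFP) in 10 equal groups of genes ordered by transcript GC content (percent), for females, females after GC correction, and males. Right, female against male log2 fold change of each gene at 1 or more mean log2 CPM (grey) and of the 32 genes called by DESeq2 in females (red), of which 29 lie above 0 in males.

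Immediate early genes, which neurons transcribe within minutes of activity, formed the list with the highest median in females. Of 31 tested members 27 were higher in Cre (50.1% of all genes were), 11 at an unadjusted p below 0.05 (all genes, 3.89%), and 0 were lower at that p (all genes, 2.07%). In 12 of 31 members every Cre library exceeded every GFP library (all genes, 6.5%). The median log2 fold change was 0.31, against 0.00 over all genes. Summed over the list, Cre libraries held 985, 1225 and 1027 CPM and GFP libraries 825, 952 and 835 CPM, and the groups did not overlap. Every Cre sum was above every GFP sum, by little between Cre replicate 1 and GFP replicate 2. No member passed edgeR, and DESeq2 called Egr4 and Junb.

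The AP-1 members Jund (36.9, 40.6 and 38.7 CPM in Cre, 28, 28.4 and 32.6 in GFP) and Jun (25, 27.6 and 24.6 against 18, 17.2 and 22.7) did not overlap between the groups. Junb, Jund and Jun each overlap a gene on the opposite strand, so their counts may include its reads. Overlap between the groups was also absent for Fosb (14, 16.3 and 13.2 against 8.92, 12.4 and 8.61 CPM) and Fosl2 (35.3, 41.3 and 37.4 against 31.4, 31.6 and 28.9 CPM). Of the Egr and Nr4a families, which are also transcription factors, Egr3 had 42, 43.8 and 42.6 against 25.4, 37.4 and 32.4 CPM and Nr4a1 60.3, 77.6 and 58.8 against 44.8, 51.9 and 32.3 CPM, again without overlap. Fos itself was at 11.6, 31 and 8.43 against 8.58, 13.5 and 9.75 CPM, and its higher Cre mean rests on Cre replicate 2: its log2 fold change was 0.67 with all libraries and -0.09 without that library. Arc, which acts at dendrites, showed the same library high (65.3, 126 and 60.4 against 53.2, 72.5 and 54.9 CPM). Npas4, induced by calcium influx in neurons, overlapped (27.1, 32.2 and 18.1 against 22.5, 28.2 and 22.2 CPM). Without Cre replicate 2 the list median was 0.19, and over all 22 alternatives it stayed positive. The members' median GC content was 54.99%, and the GC-corrected median was 0.26. In males the list median was 0.26 and 6 of 31 members were called higher by edgeR (all genes, 3.68%), Junb, Jund and Jun among them. Fosb and Nr4a1 had male log2 fold changes of -0.14 and -0.06. With the cortical score in the model no male gene passed edgeR. In males Cre and the cortical RNA (below) cannot be told apart.

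Late activity-regulated genes, which include secreted and synaptic proteins, had a median of 0.07, with 15 of 25 members higher. At an unadjusted p below 0.05, 4 members were higher (all genes, 3.89%) and 0 lower (all genes, 2.07%). The neuropeptide precursor Vgf had 191, 186 and 178 CPM in Cre against 106, 131 and 167 in GFP libraries, without overlap, and Nptx2, which clusters glutamate receptors, 22, 18 and 21.5 against 14.7, 18.2 and 14.3 CPM. Gadd45b, which takes part in activity-dependent DNA demethylation, had 6.45, 9.09 and 8.74 against 3.95, 6.46 and 5.54 CPM, where Cre replicate 1 lay just inside the GFP range.

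Genes induced by glucocorticoids, the hormones of the stress response, were higher in 19 of 23 members (all genes, 50.1%), with a median of 0.12 and 3 members higher at an unadjusted p below 0.05 (all genes, 3.89%). In 2 of 23 members every Cre library exceeded every GFP library, a share near that of all genes (6.5%). Their summed level was 1022, 979 and 992 CPM in Cre and 917, 921 and 923 CPM in GFP libraries, without overlap. Sums without overlap were not particular to lists with a clear median. Cre sums were also above GFP sums for Wnt pathway genes (1096.6 to 1116.8 against 1055.4 to 1094.9 CPM) and potassium channels (4610.9 to 4854 against 4593.6 to 4597.9 CPM), both with medians of 0.04. Ddit4, an mTORC1 inhibitor that glucocorticoids induce, had 29.1, 29.4 and 30.01 CPM in Cre and 22.9, 26 and 22 CPM in GFP libraries. The clock gene Per1 had 151, 129 and 133 against 117, 120.4 and 118 CPM, and the phosphatase gene Dusp1, which is also an immediate early gene, 20.02, 30.4 and 19.9 against 15.7, 22 and 15.3 CPM. Fkbp5, a co-chaperone of the glucocorticoid receptor, overlapped between groups (50.9, 48 and 51.7 against 45.1, 48.7 and 45 CPM, log2 0.12). No member of this list was called by edgeR or DESeq2. Heat shock and unfolded protein genes had a median of 0.00 (19 of 36 higher), and p53 targets and DNA damage genes of 0.03 (16 of 27 higher). In the latter list Bbc3, which promotes cell death, had 4.37, 4.56 and 6.28 against 2.2, 4.07 and 3.18 CPM.

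Medium spiny neuron genes differed little in each gene but mostly in the same direction. Of 28 genes that D1 and D2 neurons share, 27 were higher in Cre females (all genes, 50.1%), with a median of 0.14 and none at an unadjusted p below 0.05. In 2 of the 28 the groups did not overlap, a share near that of all genes (6.5%). The summed level was 15959, 14156 and 16830 CPM in Cre and 13673, 15388 and 13213 CPM in GFP libraries, and Cre replicate 2 lay inside the GFP range. Ppp1r1b, the dopamine-regulated phosphatase inhibitor DARPP-32, had 946, 809 and 1081 CPM in Cre against 726, 844 and 716 in GFP libraries, and the transcription factor Bcl11b 311, 270.2 and 299 against 254, 282 and 243 CPM. The tyrosine phosphatase gene Ptpn5 had 655, 615 and 674 against 556, 597 and 555 CPM, without overlap. D1 genes had a median of 0.13 (10 of 14 higher) and D2 genes of 0.12 (9 of 12 higher). Without Cre replicate 3 these medians were 0.05 and 0.04, and without GFP replicate 2 they were 0.21 and 0.23. Among D2 genes, Sp9, a transcription factor needed to form these neurons, had 22.6, 25.3 and 19.7 against 16.8, 14.4 and 18.9 CPM, and the receptor gene Gpr6 88.4, 64.2 and 93.7 against 55.6, 67.9 and 57.1 CPM. The shared median was 0.08 without Cre replicate 3, 0.09 without GFP replicate 3 and 0.22 without Cre or GFP replicate 2. In males 0 of the 28 shared genes had a positive log2 fold change (all genes, 50.9%) and the median was -0.33. The Cre male libraries also held cortical RNA and, mostly in replicate 2, choroid plexus RNA, described below.

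**Figure D4:**
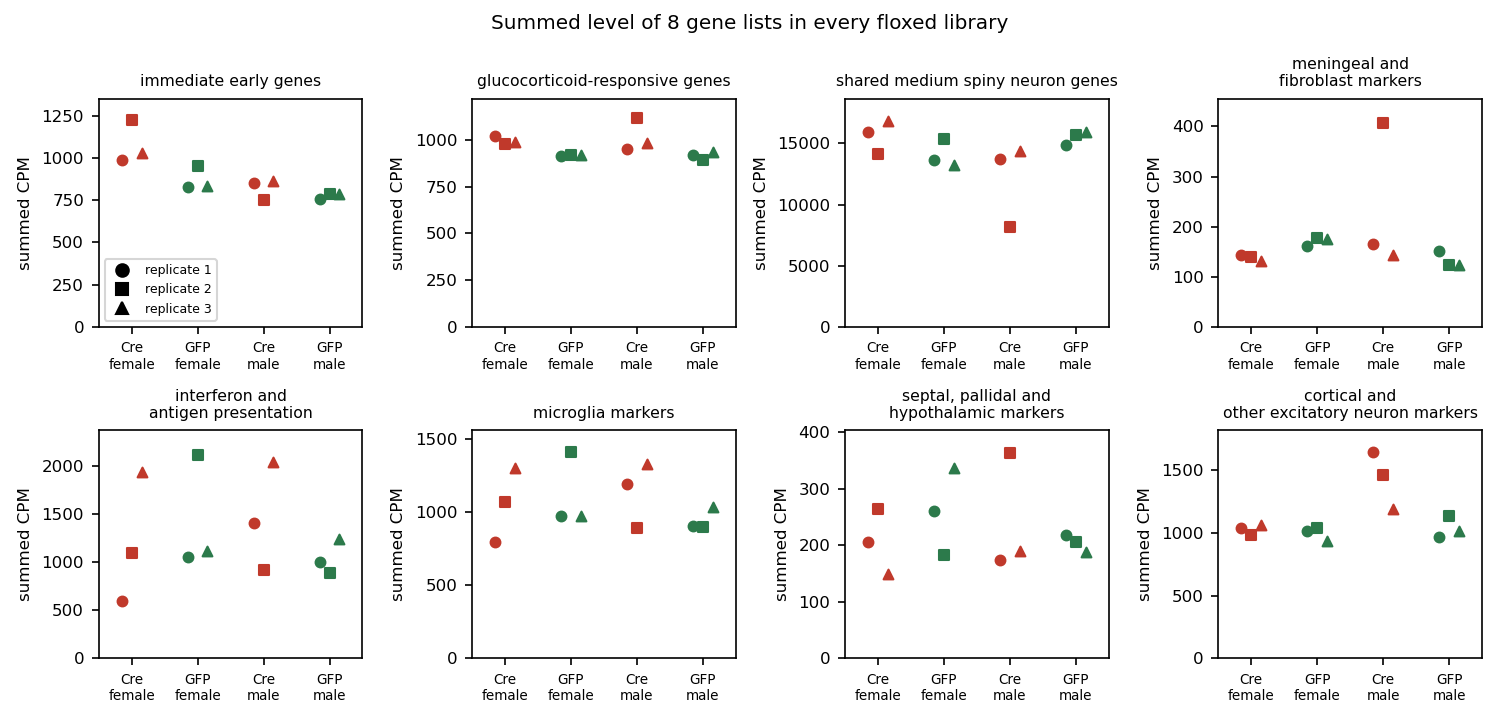
Summed CPM of 8 gene lists in each floxed library; red is Cre, green is GFP, and the symbol shape is the replicate. In females the Cre and GFP sums do not overlap for immediate early, glucocorticoid-responsive and meningeal genes, while interferon and microglia sums are highest in Cre replicate 3 and GFP replicate 2.

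Interneuron markers were lower in 12 of 18 tested members, with a median of -0.21. At an unadjusted p below 0.05, 5 members were lower (all genes, 2.07%) and 2 higher (all genes, 3.89%). In 4 of 18 members every Cre library was below every GFP library (all genes, 5.04%). In 0 members every Cre library was above every GFP library (all genes, 6.5%). Pvalb, Pthlh and Sst, given next, overlapped between the groups and are not among these 4. Pthlh and Sst also ran against the direction of most members, so the 3 genes do not stand for the list. Pvalb, the calcium buffer of fast-spiking interneurons, had 1.16, 2.92 and 1.46 CPM in Cre and 5.66, 2.15 and 7.66 CPM in GFP libraries. GFP replicates 1 and 3 were high and GFP replicate 2 lay within the Cre range. Pthlh, another gene of fast-spiking striatal interneurons, was higher in 2 of the 3 Cre libraries (4.12, 2.57 and 4.66 against 2.26, 2.86 and 2.06 CPM). Sst, the peptide of a further interneuron class, had 111, 123 and 125 against 99.4, 98.2 and 113 CPM (log2 0.21).

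The library pattern of Pvalb recurred in genes of other lists. Slc17a6, the glutamate transporter VGLUT2 of thalamic, hypothalamic and midbrain neurons, had 1.21, 5.1 and 1.91 CPM in Cre and 9.93, 3.36 and 11.8 CPM in GFP libraries. Gabrq, a GABA receptor subunit, had 3.29, 4.45 and 1.84 against 13.7, 4.1 and 13.9 CPM, and the potassium channel gene Kcnc2 13.8, 21.1 and 14.8 against 38.7, 20.5 and 35.7 CPM. In each, GFP replicates 1 and 3 were the highest libraries and GFP replicate 2 was near the Cre libraries. Ntsr1, Adra1b, Grik1 and Syt2 had the same order, as did the estrogen receptor gene Esr1 (1.44, 1.96 and 1.31 against 2.95, 1.86 and 3.42 CPM, log2 -0.81, adjusted p = 0.82, edgeR). Markers of septum, pallidum and hypothalamus summed to 205, 263 and 149 CPM in Cre and 259.8, 182 and 337 CPM in GFP libraries, a median of -0.20 with 4 of 11 higher, and GFP replicate 3 was highest. The list median was -0.54 without Cre replicate 2 and -0.09 without GFP replicate 3. These genes were grouped after their values had been seen, and the part of neighbouring tissue in them was not tested. The median of the interneuron list was -0.14 without GFP replicate 1 and also -0.14 without GFP replicate 3.

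Cortical and other excitatory neuron markers had a median of 0.01 in females, with 12 of 22 higher and sums of 1036, 982 and 1062 CPM in Cre and 1013, 1038 and 932 CPM in GFP libraries. The median rests on single libraries: it was -0.33 without Cre replicate 3 and 0.17 without Cre replicate 1. Slc17a7, the cortical glutamate transporter VGLUT1, varied from library to library (3.41, 1.5 and 36 against 20.8, 5.19 and 2.15 CPM). Choroid plexus and ependymal markers had a median of 0.04 (10 of 19 higher), which was 0.27 without GFP replicate 3, -0.05 without GFP replicate 2, 0.21 with limma-voom and 0.198 with the cortical score in the model. Ccdc153, a gene of ciliated ependymal cells, had 4.4, 4.85 and 0.859 against 1.14, 0.531 and 1.8 CPM, with Cre replicates 1 and 2 high.

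Interferon and antigen presentation genes were lower in 37 of 40 members, with a median of -0.20, but none reached an unadjusted p below 0.05 and none separated the groups. The list sum was 593, 1102 and 1943 CPM in Cre and 1055, 2123 and 1114 CPM in GFP libraries. Cre replicate 3 and GFP replicate 2 were both high and Cre replicate 1 was low. The median turned to 0.06 without Cre replicate 1 and 0.15 without GFP replicate 2, and was -0.72 without Cre replicate 3. Microglia markers followed the same libraries, with sums of 797, 1068 and 1304 against 974, 1415 and 976 CPM and a median of -0.05, which was -0.26 without Cre replicate 3 and 0.11 without GFP replicate 2. The protease gene Ctss had 92.7, 136 and 200.04 against 137, 239 and 139.8 CPM. Oasl2, induced by interferon, had 5.01, 12 and 16.9 against 11.2, 25.7 and 12.1 CPM.

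Markers of meninges and fibroblasts were lower in 17 of 18 tested members, the lowest median of all 39 lists in females (-0.23). Of these, 3 were lower at an unadjusted p below 0.05 (all genes, 2.07%) and 4 of 18 separated the groups (all genes, 5.04%). Their sum was 142, 139.7 and 130.4 CPM in Cre and 162, 178 and 175 CPM in GFP libraries, without overlap. Fmod, a collagen-binding proteoglycan, had 2.1, 2.53 and 1.58 CPM in Cre against 3.46, 3.36 and 2.8 in GFP libraries, and Col3a1, a fibrillar collagen, 1.82, 2.89 and 1.65 against 2.6, 3.63 and 2.95 CPM. The list median stayed between -0.23 and -0.29 when any 1 floxed library was left out. In males it was 0.33, with Cre male replicate 2 at 407 summed CPM. Endothelial and mural markers were lower in 19 of 24 members (median -0.11), with Pecam1, a junction protein of endothelial cells, at 15.9, 18.9 and 17.4 against 19.6, 20.2 and 19.4 CPM. The endothelial median was -0.07 without Cre replicate 3. Vegfa, which drives vessel growth, had 59.4, 56.7 and 64.6 against 66, 68.3 and 74.9 CPM, without overlap (log2 -0.21). Blood cell markers had a median of -0.22 (8 of 10 lower), which was 0.02 without Cre replicate 1 and 0.01 without GFP replicate 2.

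Oligodendrocyte markers were lower in 17 of 21 members (median -0.11, none at an unadjusted p below 0.05), and the median was -0.03 without GFP replicate 1, whose sum was the highest. Precursor markers were lower in 9 of 13 (median -0.07) and astrocyte markers in 13 of 20 (median -0.05). Olig1, a transcription factor of the oligodendrocyte lineage, went the other way (65.2, 70.2 and 68.6 against 53.2, 56.9 and 64.1 CPM). Reactive glia genes had a median of -0.02 (11 of 23 higher), which turned to 0.21 without GFP replicate 2 and 0.10 without Cre replicate 1, with Lcn2 at 0.9101, 1.46 and 0.525 against 0.372, 0.885 and 0.354 CPM.

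Gene groups tied to DNA methylation showed no shared direction. Of 20 writers, readers and erasers of methylation 11 were higher (median 0.04). Uhrf1, which guides Dnmt1 to newly copied DNA, had 3.82, 2.42 and 2.72 CPM in Cre against 2.03, 2.15 and 1.8 CPM in GFP libraries. Tet1, which oxidises methylcytosine, had 23.8, 22.2 and 19 against 23.6, 25.8 and 23.8 CPM. Clustered protocadherins, whose promoter choice depends on Dnmt3b and CpG methylation, had a median of 0.04 (16 of 24 higher, the 24 that could be matched of 58 in the list), imprinted genes of -0.07 (15 of 36 higher) and germline genes, which methylation keeps silent outside the germline, of 0.01 (8 of 15 higher). The unmatched protocadherins all belong to the alpha and gamma clusters, so the protocadherin median leaves out most of both. Among germline genes Tdrd9, a helicase of the piRNA pathway, had 0.379, 0.356 and 0.382 CPM in Cre against 0.858, 0.679 and 0.884 CPM in GFP libraries (log2 -1.11), lower in all 3 Cre libraries. Histone-modifying enzymes had a median of -0.01 (21 of 46 higher), with Ezh2, the methyltransferase of Polycomb, at 12.8, 10.9 and 12.9 against 10.9, 9.95 and 10.1 CPM.

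Synapse and receptor lists had medians within 0.06 of 0 with all libraries, but without Cre replicate 2 the median was -0.16 for monoamine and acetylcholine receptors and 0.13 for neuropeptides. Glutamate receptor and postsynaptic density genes had a median of 0.05 (34 of 54 higher). At an unadjusted p below 0.05, 3 members were higher (all genes, 3.89%) and 4 lower (all genes, 2.07%). In 5 of 54 members every Cre library was above every GFP library, a share near that of all genes (6.5%). In 0 members every Cre library was below (all genes, 5.04%). The groups did not overlap for 3 scaffold or adhesion genes of excitatory synapses, Dlgap3 (263, 247 and 288 CPM in Cre, 165, 196 and 224 in GFP), Shank3 (321, 311 and 336 against 232, 265 and 284) and Lrrtm1 (74.2, 63.7 and 69.8 against 55.1, 59 and 59.5). Vesicle release genes were lower in 31 of 44 members (median -0.04), GABA signalling genes in 16 of 31 (median -0.01), neuropeptide and hormone receptors in 28 of 46 (median -0.06), and monoamine and acetylcholine receptors in 23 of 42 (median -0.06). Hrh3, a histamine receptor that limits transmitter release, had 91, 86 and 108 CPM in Cre and 79, 69.5 and 75.6 CPM in GFP libraries, and Mc4r, a melanocortin receptor, 2.1, 2.53 and 2.22 against 3.03, 2.95 and 4.18 CPM, both without overlap. Chrna2, a nicotinic receptor subunit, had 0.506, 0.428 and 0.573 against 1.23, 1.21 and 1.53 CPM. Neuropeptides had a median of 0.05 (12 of 22 higher), potassium channels of 0.04 (38 of 66 higher), and sodium, calcium and HCN channels of 0.00 (15 of 29 higher).

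Cytosolic ribosomal protein genes were higher in 61 of 75 members, by a median of 0.04, with 7 higher (all genes, 3.89%) and 0 lower (all genes, 2.07%) at an unadjusted p below 0.05. The median was -0.02 without Cre replicate 3. Rps13 had 73.4, 83.2 and 66 CPM in Cre and 44.7, 54.1 and 55.9 CPM in GFP libraries and was called by DESeq2 (adjusted p = 0.019), and Rpl27a had 136, 149 and 169.98 against 116, 117 and 113 CPM. Ribosomal protein genes have many processed copies that can share reads, so single members are uncertain. Oxidative phosphorylation subunits had a median of 0.01 (41 of 75 higher). Wnt pathway genes had a median of 0.04 (28 of 46 higher), with the receptor gene Fzd5 at 18.5, 17.1 and 14.3 against 11.3, 11.7 and 11.2 CPM. Growth factors and their receptors had a median of -0.03 (18 of 44 higher), and matricellular and secreted matrix genes of -0.04 (17 of 45 higher), where Thbs4, a matricellular protein, was at 3.13, 3.03 and 3.72 against 1.54, 0.6199 and 1.8 CPM.

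**Figure D5:**
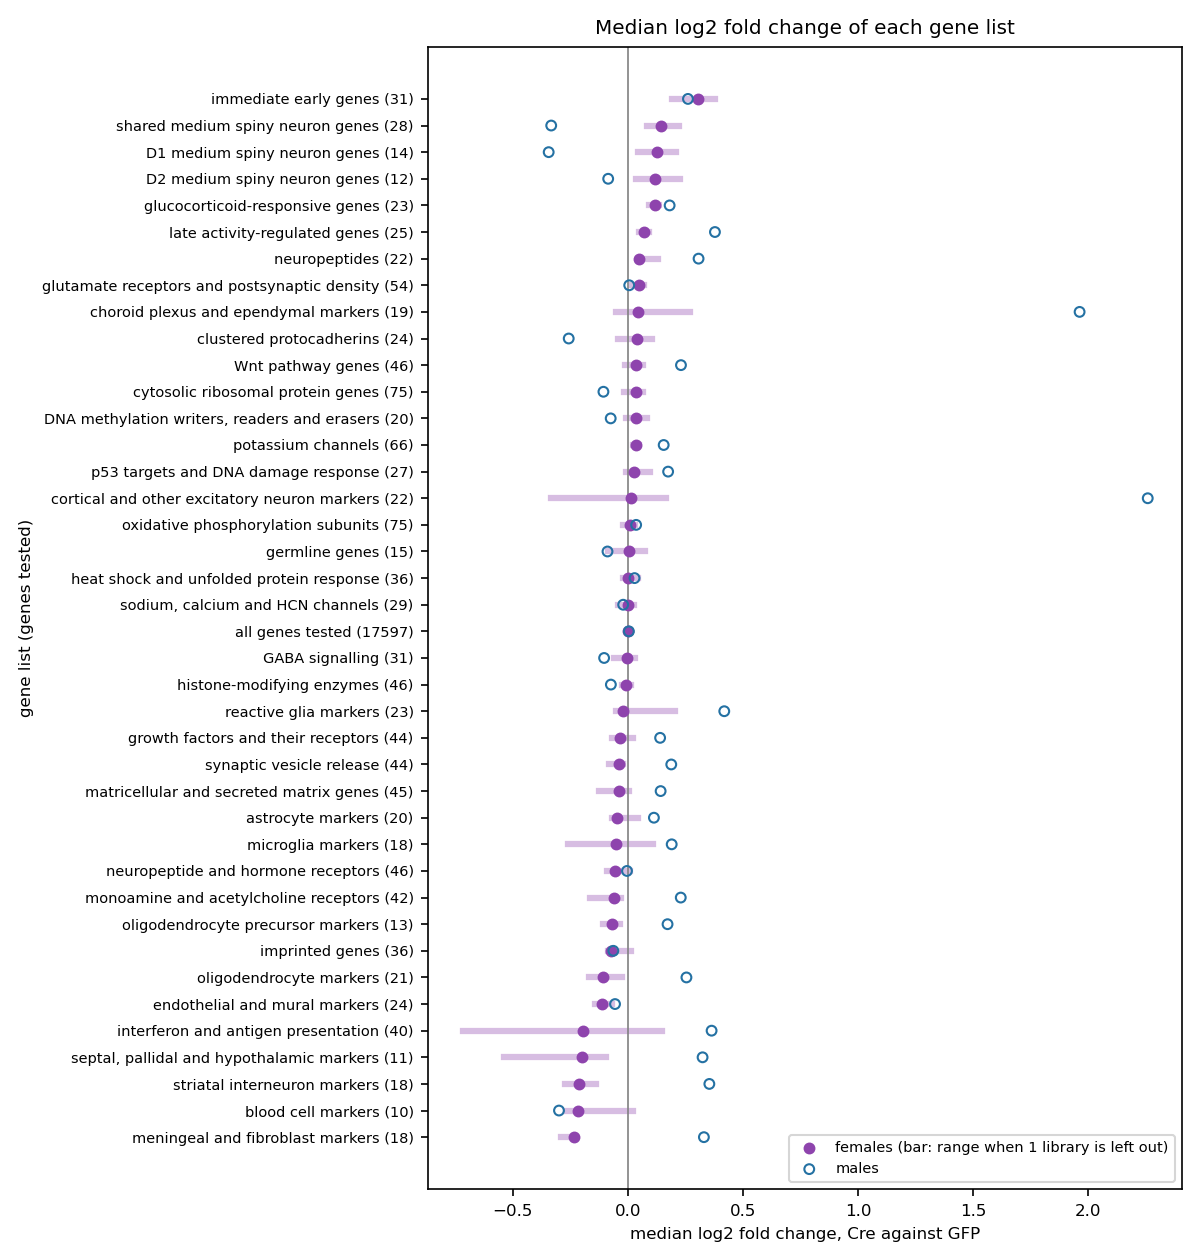
Median log2 fold change, Cre against GFP, of each gene list and of all genes tested, in females (filled points, with a bar for the range when 1 floxed library is left out) and males (open points); the number of genes tested is in parentheses. In females the list medians lie between -0.23 for meningeal and 0.31 for immediate early genes, and the bars of 22 of the 39 lists cross 0.

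In males, which share no library with the females, the Cre contrast was larger: edgeR called 647 genes higher (3.68%) and 225 lower (1.28%), and the median absolute log2 fold change was 0.15. Across the 13628 genes at 1 or more mean log2 CPM, female and male log2 fold changes had Pearson's r of -0.15 and Spearman's rho of -0.17, a description over genes, which are not independent replicates. With the GC correction these were -0.21 and -0.26. The Cre male libraries stood apart in markers of other tissue: Slc17a7 was at 428, 408 and 168 CPM in Cre males and 1.29, 2.76 and 15.3 CPM in GFP males, and Ttr, the transport protein of choroid plexus, at 125, 1848 and 23.8 against 0.952, 1.48 and 15.3 CPM. Of 22 cortical markers 14 were called higher in males. With a score of cortical markers as a covariate, 0 male genes were called by edgeR instead of 872, so Cre and this RNA cannot be told apart in males.

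The difference between the sexes passed edgeR for 2 genes, both with a lower value in females (0.0114% of genes tested, and 0.0% in the other direction). Ccn2, a matricellular protein that also marks deep cortical neurons, had 1.54, 1.75 and 1.5 CPM in Cre and 3.6, 1.95 and 2.03 CPM in GFP females, against 11.8, 8.4 and 7.71 and 2.11, 1.48 and 1.86 CPM in males (log2 difference -3.02, SE 0.36, adjusted p = 0.025, edgeR). Adcyap1, the neuropeptide PACAP, had 0.0758, 0.249 and 0.286 and 0.4005, 0.384 and 0.265 CPM in females, against 4.51, 3.22 and 2.61 and 0.204, 0.135 and 0.255 CPM in males (log2 difference -4.86, SE 0.58, adjusted p = 0.025, edgeR). In both genes the 3 Cre male libraries, which held the cortical RNA, were the high ones, and every female library was below them. With the cortical score as a covariate neither passed (adjusted p = 1.0 for both, edgeR). Ccn2 is itself 1 of the 22 markers in that score, so for Ccn2 this model adjusts the gene partly for itself. DESeq2 called 610 genes for this difference, 131 with a higher (0.8%) and 479 with a lower (2.93%) female value.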

How the data were processed

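RNA sequencing of nucleus accumbens was analysed in the 12 floxed libraries, with the 6 female libraries as the comparison of interest. The authors deposited unscaled counts, whole numbers, for each Ensembl gene. TopHat2 2.0.9, Bowtie2 2.1.0 and HTSeq 0.6.0 and the builds NCBIM37 and mm9 are named in the submitters' processing notes, and the strand setting is not given in the sources used here. Symbols, GC content and antisense overlap came from GENCODE M21 (GRCm38) by Ensembl ID (32919 of 37991 matched), and because the builds differ no gene coordinates are taken from it. Counts were filtered with filterByExpr, scaled by TMM and fitted in edgeR 4.0.16 (R 4.3.3) with a robust quasi-likelihood model of the 4 floxed groups, which share one estimate of the spread. P-values were adjusted by the Benjamini-Hochberg method over all 17597 genes and called below 0.05. Alternatives were DESeq2 1.42.0, limma-voom 3.58.1, other scalings and filters, female libraries only, a cortical marker covariate, a replicate block and leaving out each library; the GC correction and the DESeq2 alternatives were added after seeing the data. The fitting code was tested on simulated data. Named genes were up to 15 called genes per direction at a mean log2 CPM of at least 1 without overlap (none qualified), filled to 10 by smallest p, genes called for the difference between sexes, 8 genes named in advance and, for each described list, its 4 or fewer members of smallest p. Other genes are said to be chosen after their values were seen, or are further list members. Members and the 39 gene lists were chosen with earlier results of these data known. The labels call the libraries independent biological replicates, each a pool of 4 mice.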

Additional observations from a re-analysis of the deposited data

Results flagged for a closer look

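The Cre effect differed between females and males for 2 genes by the test of the difference itself. For Ccn2 the female minus male log2 difference was -3.02 (-3.019 before rounding), from -0.67 in females and 2.35 in males. All 3 Cre male libraries were above all GFP male libraries, and all 3 Cre female libraries were below all GFP female libraries. Left out one at a time, the 12 libraries gave differences from -3.18 to -2.67, with adjusted p from 0.0023 to 0.15 (edgeR). For Adcyap1 the difference was -4.86 (-4.859 before rounding), from -0.79 in females and 4.07 in males, and leaving out 1 library gave -5.26 to -4.44 with adjusted p from 0.0023 to 0.15 (edgeR). The adjusted p was above 0.05 without Cre female replicate 2, Cre male replicate 1, GFP female replicate 3 or any single GFP male library for both genes, without Cre female replicate 1 for Ccn2 and without GFP female replicate 1 for Adcyap1. Cortical markers moved with both results: the median male log2 fold change of the 22 markers was 2.26 against 0.01 in females, and their summed level was 1190 to 1644 CPM in Cre males against 965 to 1130 CPM in GFP males. Ccn2 is 1 of these 22 markers, so neither they nor the score built from them are independent of it. Choroid plexus markers had a male median of 1.96. Their sums were 386.41, 3400.5 and 249.02 CPM in Cre males 1 to 3 and 189.58 to 227.69 CPM in GFP males, so Cre male replicate 2 held most. With the cortical score in the model the differences were -2.13 and -3.18 (adjusted p = 1.0 for both, edgeR).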

How the results depend on the processing

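In females edgeR called 0 genes under each alternative run with it. limma-voom, run with the main choices alone, called 0, and DESeq2 called 32. The DESeq2 count was 16 with the GC correction, 77 with female libraries only, and 5 to 115 with 1 library left out. For the difference between the sexes edgeR called 2 genes, and the count was 610 with DESeq2, 12 with the GC correction, 43 without a filter on low counts, 0 with limma-voom, with the cortical marker score and with the replicate block, and 0 to 500 with 1 library left out (500 without Cre male replicate 3, 144 without GFP female replicate 2, 20 without Cre female replicate 3). In males edgeR called 872 genes, against 1776 with DESeq2, 0 with the cortical score, 191 with the replicate block and 93 to 1303 with 1 library left out. Of 110 genes whose female log2 fold change was recomputed, 7 turned their sign under an alternative. With 1 library left out, Dnmt1 ran from -0.106 to 0.0349 (without Cre female replicate 3), Fos from -0.0873 (without Cre female replicate 2) to 0.998, Npas4 from -0.114 (without Cre female replicate 2) to 0.283, and Slc17a7 from -1.88 (without Cre female replicate 3) to 1.93. Likewise Ctss ran from -0.591 to 0.0477 and Ighm from -1.24 to 0.287 (both without GFP female replicate 2), and Igkc from -0.153 (without Cre female replicate 3) to 0.758. With the replicate block Slc17a7 was at -0.11 and Igkc at -0.0839, and with limma-voom Igkc was at -0.0976. Medians of 22 of the 39 gene lists turned their sign in at least 1 of the 12 fits that left out a library. The causes were not tested.

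The labels do not state that the replicate numbers pair the samples, and same-numbered libraries did not deviate together. Whether libraries were handled in pairs is not known. Deviations from the group means of same-numbered Cre and GFP libraries correlated at 0.0857, -0.138 and -0.452 in females and -0.109, 0.0508 and 0.109 in males. In females replicate 1 of Cre correlated best with replicate 3 of GFP (0.313), and replicate 3 of Cre with replicate 2 of GFP (0.462). With the replicate as a block, edgeR called 0 genes in females, as without it. A median SE of 0.108 on the log2 scale limits what 3 libraries a side can show. No gene passed edgeR in females, including those whose difference was several times their SE, so a call needed more than that.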

Other observations

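Genes of antibody-producing cells gave several of the largest fold changes in females, and their levels varied widely between libraries of a group. These genes were picked after their values were seen. Ighg3, an immunoglobulin heavy chain gene, was at 0.581, 1.5 and 0.501 CPM in Cre and 2.32, 3.31 and 16.3 CPM in GFP libraries, with GFP replicate 3 highest (log2 -3.14, adjusted p = 0.63, edgeR). Ighm, the heavy chain of IgM, was at 42.5, 261 and 178 against 163, 517 and 99.8 CPM, with GFP replicate 2 highest and Cre replicate 1 lowest. The light chain gene Igkc was at 58.4, 407 and 469 against 198, 403 and 174 CPM, and the variable segment Igkv4-91 at 0.0506, 16.3 and 3.56 against 0, 0.649 and 0 CPM, where Cre replicate 2 stood alone. Npr3, a receptor that clears natriuretic peptides, was at 0.4298, 1.39 and 0.7401 CPM in Cre and 3.49, 0.915 and 4.04 CPM in GFP libraries, high in GFP replicates 1 and 3, the libraries with high Slc17a6 and Gabrq.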
